A study of Mus musculus with 12 samples.

Results

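The transcripts described here are 10 of the 45777 genes in the deposited liver RNA-seq table. They are the transcription factor gene Nfe2l2, which encodes NRF2, its inhibitor gene Keap1, and 8 genes that NRF2 is known to control. These 8 are Srxn1, Txnrd1, Txn1, Nqo1, Osgin1, G6pdx, Pgd and Taldo1, most of them genes of thiol, quinone or NADPH metabolism. Members were taken by gene symbol, and each symbol matched 1 row. The study asked how liver poisoning by acetaminophen (APAP) depends on Gα12, a G protein subunit encoded by Gna12. It compared 12 livers in 4 groups of 3: wild type with vehicle (WT+veh), wild type with APAP (WT+APAP), Gα12-/- with vehicle (Gα12KO+veh) and Gα12-/- with APAP (Gα12KO+APAP). All mice were C57BL/6, aged 10 to 12 weeks, and the study's methods describe males fasted overnight, a single intraperitoneal dose of 300 mg/kg APAP and liver collection after 6 h. The knockout was in the whole body, and WT mice were littermates. The vehicle is not named in the sources used here, and each library came from bulk tissue of 1 liver.

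NRF2 is a transcription factor that is made continuously and normally destroyed at once, because KEAP1 hands it to a CUL3 ubiquitin ligase. Electrophiles and oxidants modify cysteines of KEAP1, NRF2 then escapes destruction, enters the nucleus, pairs with a small MAF protein and binds antioxidant response elements in its target genes. In liver, the reactive quinone imine made from APAP by cytochrome P450 enzymes of pericentral hepatocytes consumes glutathione and binds protein thiols, and NRF2 is known for its role in protecting hepatocytes against it. Some of the targets treated here serve the reduction of oxidized thiols (the thioredoxin branch). Others belong to the pentose phosphate pathway, whose oxidative arm supplies NADPH for this reduction. Nqo1 and Osgin1 belong to neither. Since NRF2 itself is controlled mainly at the protein level, transcript levels do not measure its activity.

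To show which of the 10 genes carry the core letters of an antioxidant response element close to their start, promoter windows from 250 bases before to 50 bases after each annotated start were read from RefSeq (GRCm38.p6). All 10 members matched, with 13 windows. The letters TGACNNNGC, searched on both strands, were found in windows of 5 of the 10 genes (50%), and 14% of 27025 genes in the same table have such a window. Per window the shares were 38.5% of 13 and 12.4% of 32851. These are matches of letters and not measured binding. The 5 matches are printed below 5′ to 3′ on the gene's strand with 10 flanking bases on each side, the match in capitals and positions counted from 0 at the start base.
Nfe2l2, chr2:75704885-75704913, minus strand, positions -240 to -232: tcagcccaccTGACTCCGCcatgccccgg
Srxn1, chr2:152105542-152105570, plus strand, positions 28 to 36, reverse match: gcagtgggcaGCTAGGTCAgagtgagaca
Txnrd1, chr10:82859104-82859132, plus strand, positions -92 to -84, reverse match: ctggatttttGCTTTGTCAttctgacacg
G6pdx, chrX:74428919-74428947, minus strand, positions -57 to -49, reverse match: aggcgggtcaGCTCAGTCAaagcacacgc
Pgd, chr4:149166061-149166089, minus strand, positions 3 to 11: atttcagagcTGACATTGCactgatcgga
For Pgd the match lay in the window of an annotated start inside the gene (chr4:149166033-149166332). The window at the 5′ end of Pgd (chr4:149166656-149166955) did not hold these letters. For Txnrd1 the match was likewise in an internal window (chr10:82858956-82859255), and its other windows, including that at the 5′ end, held none. Windows of Keap1, Nqo1, Txn1, Taldo1 and Osgin1 did not hold these letters, which says nothing about sites elsewhere. The Osgin1 window (chr8:119436897-119437196) lay inside the gene (chr8:119425882-119446257), so the 5′ end of Osgin1 was not read. All 5 genes with a match rose after APAP, as did Nqo1 and Osgin1 without one in the windows read (values below).

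Libraries held 49737950 to 69566079 counts. Counts of the targeted gene did not separate the genotype labels, and other checks of the genotype by the study were not analysed here. Gna12 stood at 66.7, 34.8 and 63.3 CPM (TMM-scaled counts per 1000000 counts of the library) in the 3 WT+veh livers and at 67.2, 66.6 and 54.6 CPM in the 3 Gα12KO+veh livers. After APAP it stood at 23.7, 58.1 and 50.5 CPM in WT and at 43.5, 48.3 and 46.2 CPM under the knockout label. The log2 difference of the knockout label minus WT was 0.19 ± 0.24 (SE) with vehicle (adjusted p = 0.878) and 0.05 ± 0.30 with APAP (adjusted p = 0.993) by edgeR's quasi-likelihood test. Gene-level counts can include reads from exons that a deletion leaves in place, so the groups are called WT and Gα12KO as labelled, and each direction between them rests on the label. All 5 hepatocyte markers were present in every liver, with summed levels of 59126 to 130160 CPM. The sum of 5 pericentral hepatocyte markers was 9223 to 10634 CPM in the 6 vehicle livers and 3649 to 6056 CPM in the 6 APAP livers, with none at 0. The liver WT+APAP 1 stood apart: its 5 erythroid markers summed to 17366 CPM against 253 to 749 CPM in the other 11 livers, and its 6 neutrophil markers to 130 CPM against 1.10 to 22.4 CPM. Its TMM scaling factor was 0.75, against 0.892 to 1.13 in the others, so its scaled CPM values are raised relative to its raw share of counts. Several results that rest on that liver are given with and without it.

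APAP raised most of the 10 transcripts. Over all 12 livers, with the genotype label as a covariate, 7 of the 10 rose at an adjusted p under 0.05 (Nfe2l2, Nqo1, Srxn1, Txnrd1, G6pdx, Pgd and Osgin1), against 14% of the 16509 genes tested, and none fell, against 11.4%. All 10 passed the filter on low counts. For the same 7, each of the 6 APAP livers lay above each of the 6 vehicle livers in TMM-scaled CPM, which held for 7.11% of genes tested. The median log2 fold change was 1.36 over the 10 members and 0.01 over all genes tested. Keap1, Txn1 and Taldo1 did not pass. In bulk liver, fewer cells of a type and less RNA per cell cannot be told apart, and several cell type markers moved with treatment. All 5 pericentral markers fell over all livers, and the sinusoidal endothelial markers Lyve1 (2.12-fold, adjusted p = 9.23e-05) and Pecam1 (1.33-fold, adjusted p = 0.0121) rose while the other 3 of that list did not pass. Of 6 neutrophil markers, 1 passed (Cxcr2, 6.90-fold, adjusted p = 0.0381), and their sum was 1.20 to 19.5 CPM with vehicle and 1.10 to 130 CPM with APAP. No hepatocyte, Kupffer cell or erythroid marker passed. The part of these markers in the results was not tested.

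**Figure D1:**
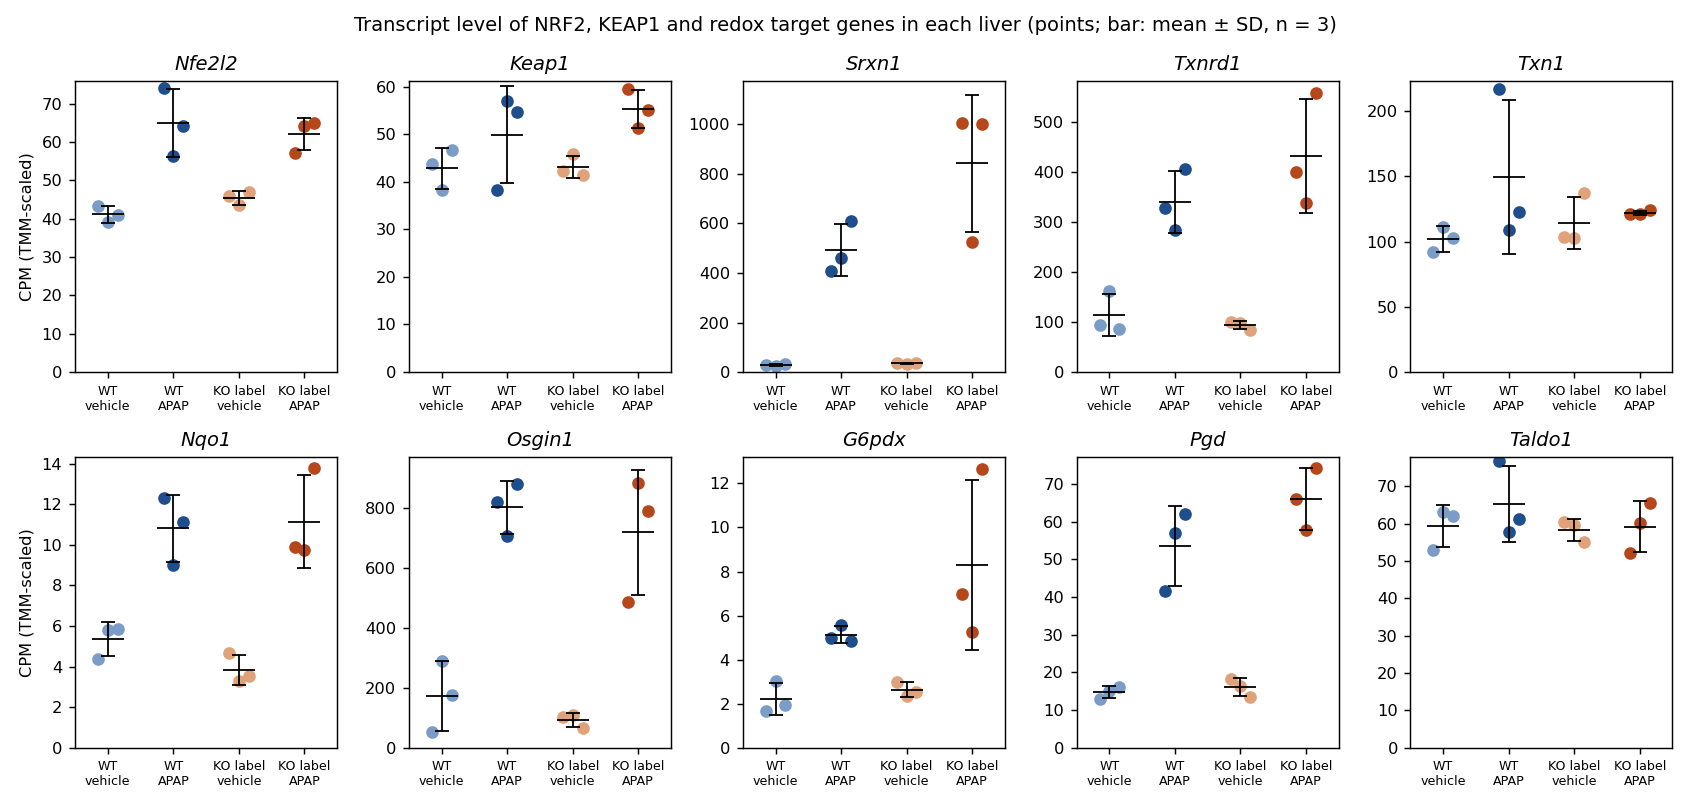
Transcript level (CPM, linear axis from 0) of each of the 10 genes in each of the 12 livers, with points for livers and bars for the mean ± SD of 3 livers per group. Srxn1, Txnrd1, Osgin1, Pgd, Nqo1, G6pdx and Nfe2l2 show all APAP points above all vehicle points, whereas the points of Keap1, Txn1 and Taldo1 overlap between treatments.

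The pair at the top of the pathway moved little. Nfe2l2 stood at 43.4, 39.1 and 40.9 CPM in WT+veh, 74.2, 56.4 and 64.3 CPM in WT+APAP, 45.9, 43.5 and 47.1 CPM in Gα12KO+veh and 57.3, 64.3 and 64.9 CPM in Gα12KO+APAP. Every APAP liver was above every vehicle liver, the lowest APAP value being 1.2 times the highest vehicle value. The high value of WT+APAP 1 depended on scaling, since without the TMM factor it was 55.6 CPM, the lowest of the APAP livers and still above the highest vehicle value of 51.3 CPM. In the length-scaled TPM values described below the treatments overlapped, with WT+APAP 1 at 33.1 and Gα12KO+veh 1 at 38.2. The log2 fold change over all livers was 0.55 ± 0.09 (SE, n = 6 per treatment), or 1.47-fold (95% confidence interval 1.28 to 1.69, adjusted p = 0.000991, edgeR's quasi-likelihood test with Benjamini-Hochberg adjustment, as for every adjusted p of a count test here). Keap1, whose product holds NRF2 for degradation, stood at 43.6, 38.2 and 46.7 CPM in WT+veh and 38.2, 56.9 and 54.6 CPM in WT+APAP. Under the knockout label it stood at 42.3, 45.7 and 41.4 CPM with vehicle and 59.5, 51.4 and 55.1 CPM with APAP. In the Keap1 values, 5 of the 6 APAP livers exceeded all vehicle livers, and the exception was WT+APAP 1, which had the lowest Keap1 level of the 12. Its log2 fold change of 0.29 ± 0.11 did not pass (adjusted p = 0.0705). Without WT+APAP 1 it was 0.38 ± 0.08 and passed (adjusted p = 0.00477). Keap1 shares 510 of 4693 exonic bases with the antisense gene Gm16754, not analysed here, and whether counting used strand is not given in the sources used here.

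Within the thioredoxin branch the 3 members differed widely. Srxn1 encodes sulfiredoxin, which restores peroxiredoxins whose cysteine has been oxidized to sulfinic acid. Its level was 27.5, 24.5 and 33.0 CPM in WT+veh and 410, 461 and 611 CPM in WT+APAP. Under the knockout label it was 36.8, 34.2 and 35.5 CPM with vehicle and 1005.5, 524 and 1001.7 CPM with APAP. The lowest APAP liver was 11.1 times the highest vehicle liver. The log2 fold change of 4.35 ± 0.20 corresponds to 20.3-fold (95% confidence interval 15 to 27.6, adjusted p = 8.42e-08), and by p-value Srxn1 ranked 4 among the 16509 genes tested and by fold change 171. Txnrd1 encodes the cytosolic thioredoxin reductase, the selenoenzyme that passes electrons from NADPH to thioredoxin. It stood at 94.2, 163 and 85.4 CPM in WT+veh, 329, 285 and 408 CPM in WT+APAP, 99.3, 98.3 and 85.0 CPM in Gα12KO+veh and 400, 338 and 559 CPM in Gα12KO+APAP. The groups did not overlap, although WT+veh 2 stood well above the other vehicle livers, and the change was 3.70-fold (95% confidence interval 2.72 to 5.03, adjusted p = 5.54e-05). Txn1, thioredoxin itself, stood at 91.7, 111 and 103 CPM in WT+veh and 217, 109 and 123 CPM in WT+APAP. Under the knockout label it stood at 103, 103 and 138 CPM with vehicle and 121, 121 and 124 CPM with APAP. Treatments overlapped, and a single liver, WT+APAP 1, lay far above the rest on the CPM scale, whereas in TPM (length-scaled transcripts per 1000000) it stood at 205, within the 192 to 227 of the 6 APAP livers. The log2 fold change of 0.32 ± 0.17 did not pass (adjusted p = 0.191), and it was 0.14 ± 0.10 without that liver (adjusted p = 0.316). On quantile-normalized log2(TPM + 1), limma did call Txn1 (log2 difference 0.35 ± 0.10, adjusted p = 0.018).

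The other direct NRF2 targets in the set are Nqo1 and Osgin1. Nqo1 encodes the NAD(P)H quinone dehydrogenase that reduces quinones by both electrons at once, and it is a standard reporter of NRF2 activity. It was low in these livers. Its values were 4.39, 5.83 and 5.85 CPM in WT+veh, 12.3, 9.01 and 11.1 CPM in WT+APAP, 4.65, 3.29 and 3.51 CPM in Gα12KO+veh and 9.89, 9.74 and 13.8 CPM in Gα12KO+APAP. All APAP livers exceeded all vehicle livers, by 2.42-fold in the fit (95% confidence interval 1.89 to 3.1, adjusted p = 0.000192). Osgin1, oxidative stress induced growth inhibitor 1, had the second largest fold change among the 10 and the widest spread with vehicle. It stood at 54.0, 289 and 177 CPM in WT+veh and 820, 707 and 883 CPM in WT+APAP. Under the knockout label it stood at 101, 108 and 64.9 CPM with vehicle and 486, 884 and 792 CPM with APAP. The highest of the 6 vehicle livers was 5.35 times the lowest, against 1.82 times among APAP livers, and the treatments still did not overlap. The fold change was 6.05 (95% confidence interval 3.6 to 10.2, adjusted p = 0.000239).

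The 3 pentose phosphate members also differed. G6pdx and Pgd encode glucose-6-phosphate dehydrogenase and 6-phosphogluconate dehydrogenase, the enzymes that make NADPH in the oxidative arm, whereas Taldo1 encodes transaldolase of the non-oxidative arm. Pgd was 12.96, 15.1 and 16.2 CPM in WT+veh, 41.6, 57.0 and 62.1 CPM in WT+APAP, 18.4, 16.5 and 13.6 CPM in Gα12KO+veh and 66.0, 57.8 and 74.1 CPM in Gα12KO+APAP. It rose 3.85-fold (95% confidence interval 3.18 to 4.67, adjusted p = 1.03e-06), with the lowest APAP liver 2.26 times the highest vehicle liver. G6pdx was the least abundant member. Its values were 1.67, 3.02 and 1.94 CPM in WT+veh and 4.97, 5.59 and 4.85 CPM in WT+APAP. Under the knockout label they were 3.01, 2.36 and 2.54 CPM with vehicle and 6.98, 5.24 and 12.7 CPM with APAP. The groups did not overlap, and the rise was 2.71-fold (95% confidence interval 1.93 to 3.8, adjusted p = 0.000669). G6pdx shares 418 of its 3080 exonic bases with Ikbkg on the opposite strand. Ikbkg, named here only for that overlap and after its values were seen, was at 89.3 to 118 CPM with vehicle and 153 to 217 CPM with APAP (1.90-fold, adjusted p = 0.000174), so that without strand the reads of the shared stretch cannot be told apart. Taldo1 stayed between 52.1 and 76.7 CPM in all 12 livers. Its treatments overlapped, and its log2 fold change of 0.08 ± 0.10 had a 95% confidence interval of -0.14 to 0.30 (adjusted p = 0.61).

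**Figure D2:**
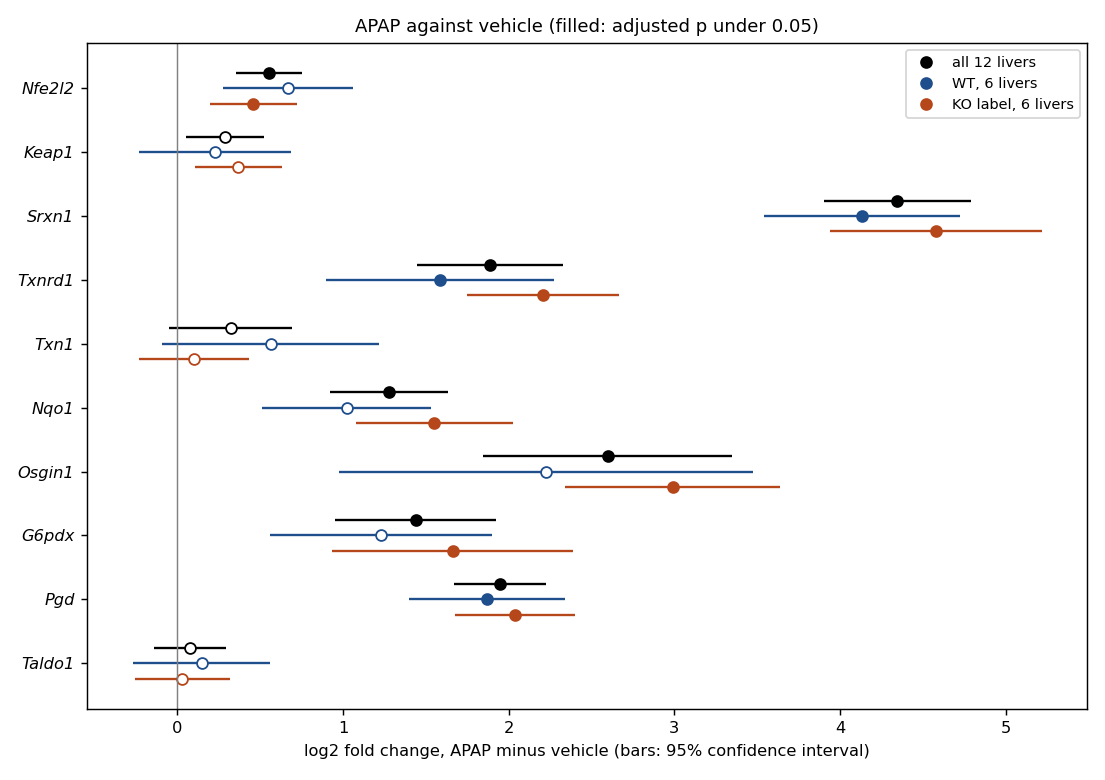
Log2 fold change of APAP minus vehicle for the 10 genes over all 12 livers (black), in WT (blue) and under the Gα12KO label (orange), with 95% confidence intervals as bars and filled points where the adjusted p is under 0.05. Srxn1 lies farthest to the right at 4.35 over all livers, and the intervals of Txn1 and Taldo1 include 0 in all 3 comparisons.

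Levels can be compared between genes only per transcript length, for which the deposited TPM values were used. With vehicle, mean levels over 6 livers ran from Txn1 (164 ± 17.0 TPM, SD) through Osgin1 (105 ± 63.1 TPM), Taldo1 (74.4 ± 11.4 TPM) and Txnrd1 (49.0 ± 13.1 TPM) to Nfe2l2 (29.2 ± 5.24 TPM). Below these came Keap1 (19.6 ± 3.29 TPM), Srxn1 (18.4 ± 4.34 TPM), Pgd (11.3 ± 2.79 TPM), Nqo1 (4.75 ± 1.21 TPM) and G6pdx (1.67 ± 0.49 TPM). Neighbours in this order overlapped in range over the 6 livers, except Nfe2l2 above Keap1, Pgd above Nqo1 and Nqo1 above G6pdx. With APAP, Osgin1 (646 ± 162 TPM) and Srxn1 (421 ± 221 TPM) led, with overlapping ranges, followed by Txn1 (209 ± 14.8 TPM) and Txnrd1 (195 ± 72.1 TPM). Srxn1 thereby moved from rank 7 of the 10 to rank 2. The remaining order with APAP was Taldo1 (81.2 ± 12.3 TPM), Pgd (47.3 ± 15.5 TPM), Nfe2l2 (46.2 ± 7.24 TPM), Keap1 (24.9 ± 7.77 TPM), Nqo1 (11.9 ± 2.91 TPM) and G6pdx (5.03 ± 2.84 TPM), and in it only Nfe2l2 and Keap1 were neighbours whose ranges did not overlap. On this scale the treatments overlapped for Txn1, Taldo1, Nfe2l2, Keap1 and G6pdx, and WT+APAP 1 was the lowest APAP liver for 9 of the 10 members, all but Txn1, for instance at 33.1 TPM for Nfe2l2, 10.1 TPM for Keap1 and 145 TPM for Srxn1. Nqo1 and G6pdx held ranks 9 and 10 under both treatments.

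**Figure D3:**
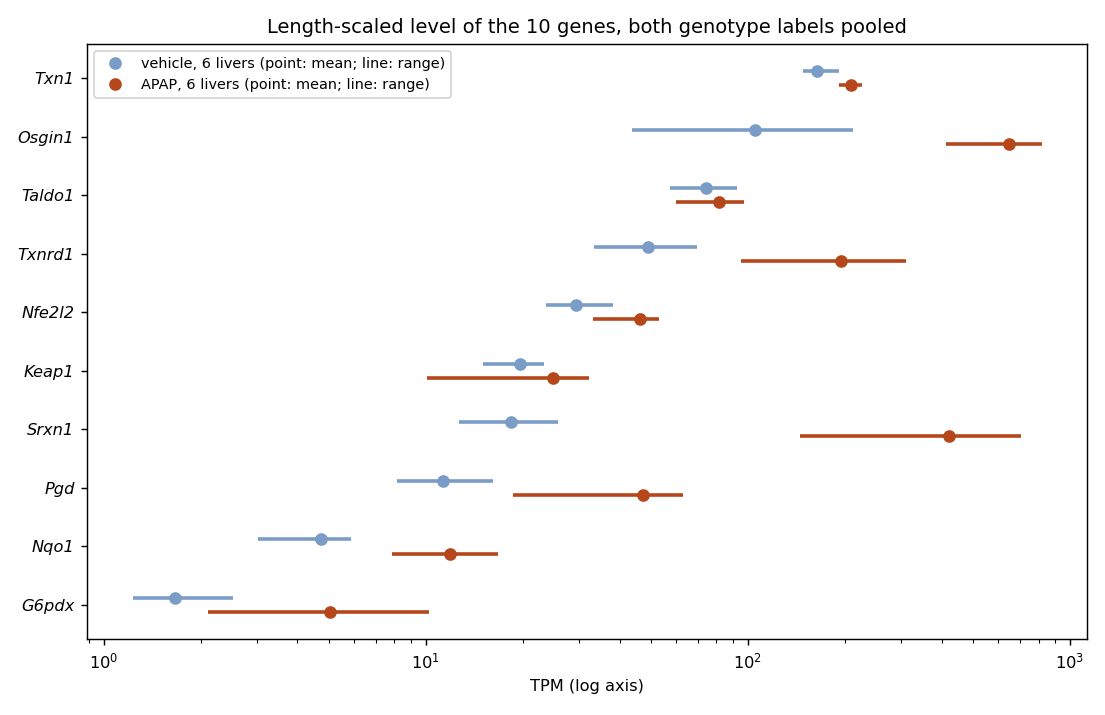
Level of the 10 genes in TPM on a log axis, with points for the mean and lines for the range over 6 vehicle (blue) and 6 APAP (orange) livers, both genotype labels together. Genes are ordered by the vehicle mean. Srxn1 and Osgin1 show the widest shifts between means, and the ranges of Txn1, Taldo1, Nfe2l2, Keap1 and G6pdx overlap between treatments on this scale.

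Within each genotype label the same directions were seen. In WT livers, all 10 fold changes were above 0, with a median log2 value of 1.13 against 0.03 over all genes tested. Of the 10, 3 passed (Srxn1, 17.5-fold, adjusted p = 0.00102; Pgd, 3.65-fold, adjusted p = 0.0082; Txnrd1, 3.00-fold, adjusted p = 0.0446), against 1.62% of 15693 genes that rose and 0.427% that fell. Another 4 did not overlap between treatments and had adjusted p-values between 0.0634 and 0.0926 (Nqo1 2.03-fold, G6pdx 2.34-fold, Osgin1 4.68-fold, Nfe2l2 1.59-fold). Thus 7 of the 10 were higher without overlap, against 12.9% of genes. The call count depended on the fit: these 7 all passed when the WT contrast was taken from 1 fit of all 12 livers, and also by DESeq2's Wald test. Conversely, only 1 of the 10 (Srxn1) passed without WT+veh 1 or without WT+veh 3, and 2 passed without WT+APAP 1 or without WT+APAP 3. Under the Gα12KO label, 7 of the 10 passed (Srxn1 23.9-fold, Osgin1 7.94-fold, Txnrd1 4.62-fold, Pgd 4.11-fold, G6pdx 3.16-fold, Nqo1 2.93-fold and Nfe2l2 1.38-fold), against 13% of 15665 genes that rose and 9.6% that fell. Adjusted p-values ran from 8.44e-05 for Srxn1 to 0.0232 for Nfe2l2. The Nfe2l2 call was lost when any of 4 of the 6 livers (Gα12KO+veh 1 or 2, Gα12KO+APAP 2 or 3) was left out, with an adjusted p of up to 0.0901. Keap1 narrowly missed (1.29-fold, adjusted p = 0.0521) although its groups did not overlap, which made 8 of the 10 higher without overlap, against 21.8% of genes. Median log2 fold change was 1.61 over the 10 members and -0.02 over all genes tested. A gene passing under 1 label and not under the other is not shown to differ between them, and that difference was tested directly.

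Whether the response depended on the genotype label was tested by the interaction of label and treatment over all 12 livers. None of the 10 members passed, against 0% of the 16509 genes tested by edgeR. At an unadjusted p under 0.05 there were 0 members and 848 genes in all, and DESeq2's Wald test called no member, and 2 genes higher and 6 lower in all. Fold changes were larger under the Gα12KO label for 7 of the 10, against 48.6% of all genes tested. The median log2 difference of the responses was 0.30 over the 10 members and -0.02 over all genes tested. Osgin1 showed a log2 difference of 0.76 ± 0.64 with a 95% confidence interval of -0.63 to 2.16, Txnrd1 of 0.62 ± 0.37 (-0.18 to 1.43), Nqo1 of 0.53 ± 0.30 (-0.12 to 1.18) and Srxn1 of 0.45 ± 0.35 (-0.31 to 1.20). These intervals include 0 and also differences of more than 1 on the log2 scale. For Osgin1 the value rested on 1 vehicle liver, since it was 0.18 ± 0.57 without WT+veh 2. Without the same liver the Txnrd1 value was 0.275 ± 0.302. G6pdx depended on 1 APAP liver, with 0.43 ± 0.44 in all livers and -0.02 ± 0.36 without Gα12KO+APAP 3. Without WT+APAP 1 the value of Keap1 went from 0.139 to -0.003 and that of Taldo1 from -0.116 to 0.034.

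The labels were also compared within each treatment. Among APAP livers none of the 10 passed, against 0.0309% of 16174 genes. At an unadjusted p under 0.05 there was 1 member, and 536 genes in all. That member was Srxn1, at 494 ± 104 CPM (SD, n = 3) in WT and 844 ± 277 CPM under the Gα12KO label. Its log2 difference was 0.76 ± 0.30 with a 95% confidence interval of 0.08 to 1.44 (adjusted p = 0.958), and the groups overlapped, since Gα12KO+APAP 2 at 524 CPM lay below WT+APAP 3 at 611 CPM. G6pdx was 1.60-fold higher (95% confidence interval 0.958 to 2.67, adjusted p = 0.958), a difference of 0.68 on the log2 scale that was 0.24 without Gα12KO+APAP 3. For Nfe2l2 the interval was 0.722 to 1.24-fold and for Nqo1 0.727 to 1.44-fold. Without WT+APAP 1 the log2 difference changed sign for Nfe2l2 (-0.08 to 0.04), Keap1 (0.14 to -0.01) and Txn1 (-0.31 to 0.07). Neutrophil markers were lower under the Gα12KO label in these livers, but none of the 6 passed (adjusted p = 0.958 for each). Their sum was 12.7, 22.4 and 130 CPM in WT+APAP and 1.10, 3.88 and 8.51 CPM in Gα12KO+APAP. Under that label 3 of the 6 were at 0 in at least 1 liver. Their part in the differences was not tested. Among vehicle livers none of the 10 passed either, against 0.0262% of 15262 genes. The only member with an unadjusted p under 0.05 was Srxn1, and 1154 genes in all were under it. Srxn1 was 1.25-fold higher under the Gα12KO label (adjusted p = 0.654) and its groups did not overlap. Nfe2l2 was 1.11-fold higher (adjusted p = 0.785), also without overlap. Thus 2 of the 10 were higher without overlap in TMM-scaled CPM, against 7.46% of genes. Without the TMM factor Nfe2l2 overlapped, at 44.5 CPM in WT+veh 1 and 42.8 CPM in Gα12KO+veh 3. In TPM both genes overlapped. Nfe2l2 was at 31.3 TPM in WT+veh 1 and 26.0 TPM in Gα12KO+veh 3, and Srxn1 at 17.9 TPM in WT+veh 3 and 16.8 TPM in Gα12KO+veh 3. The log2 difference with vehicle was above 0 for 6 of the 10, against 51.1% of genes. Osgin1 (0.528-fold, adjusted p = 0.738) and Nqo1 (0.714-fold, adjusted p = 0.656) were lower under the Gα12KO label, by more than Srxn1 was higher. Without WT+veh 2 the log2 difference of Osgin1 went from -0.92 to -0.33. DESeq2's Wald test called 0 of the 10 in either treatment.

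**Figure D4:**
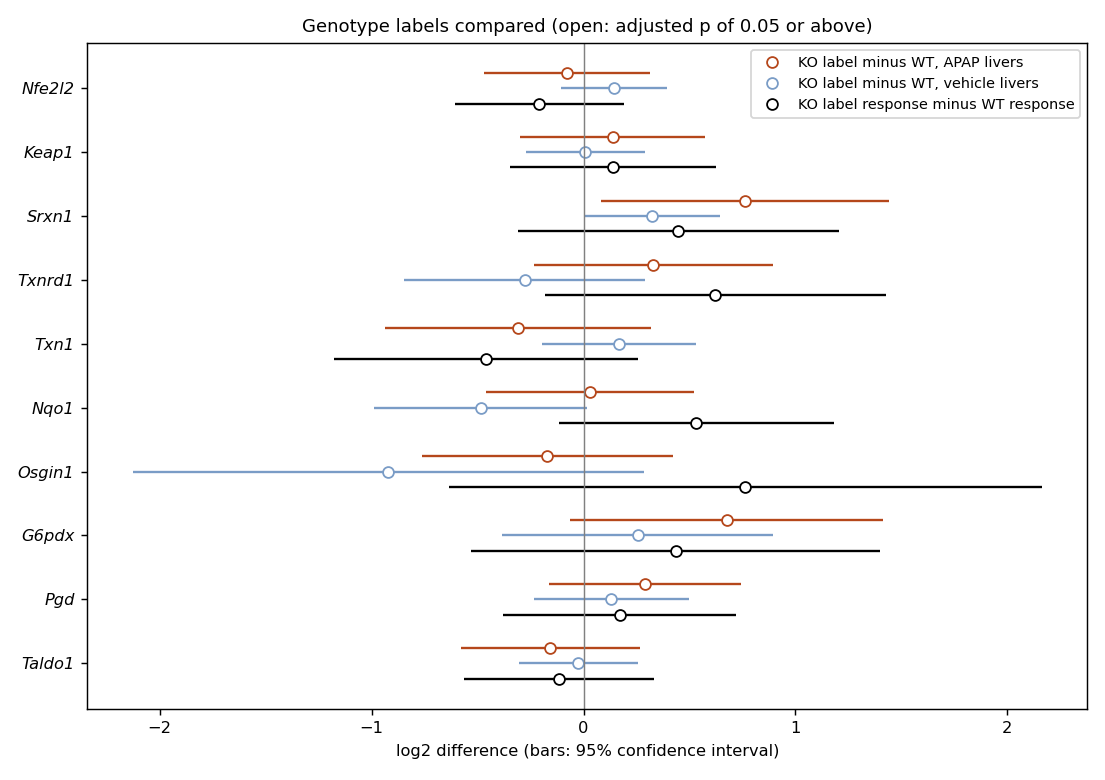
Log2 difference of the Gα12KO label minus WT in APAP livers (orange) and vehicle livers (blue), and of the 2 responses to APAP (black), for the 10 genes, with 95% confidence intervals as bars. All points are open because no adjusted p was under 0.05, and Osgin1 has the widest interval of the 10 genes in vehicle livers and for the responses.

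The rest of the pathway was described by 4 lists. Regulators of NRF2 moved in both directions: over all livers, 6 of 10 rose and 2 fell, against 14% and 11.4% of all genes tested, and the median log2 change was 0.33. Sqstm1, whose product p62 binds KEAP1 and takes it to autophagy, rose from 290 to 390 CPM with vehicle to 1736 to 2412 CPM with APAP (6.13-fold, adjusted p = 1.03e-07). The small MAF partner genes Maff (14.1-fold, adjusted p = 3.29e-06) and Mafk (3.95-fold, adjusted p = 6.08e-07) rose too. So did Bach1, a repressor that competes for the same DNA element (1.99-fold, adjusted p = 0.000517). Btrc, a subunit of the ligase that acts on NRF2 independently of KEAP1, fell to 0.687-fold (adjusted p = 0.00521). In WT alone 3 of the 10 rose and 0 fell (1.62% and 0.427% of all genes), and under the Gα12KO label 6 rose and 1 fell (13% and 9.6% of all genes).

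Other NRF2 targets followed the members in part. Of 28 genes, 27 were tested, and 15 rose and 3 fell over all livers (14% and 11.4% of all genes), and the median log2 change was 0.68. The untested gene was Gpx2, at no more than 0.16 CPM in any liver. Gclc, the catalytic subunit of the rate-limiting enzyme of glutathione synthesis, rose from 119 to 187 CPM with vehicle to 1080 to 1982 CPM with APAP (8.52-fold, adjusted p = 1.45e-07). Slc7a11, the cystine importer that feeds glutathione synthesis, had no counts in 5 of the 6 vehicle livers, 0.07 CPM in the other, and 1.39 to 6.56 CPM with APAP (adjusted p = 1.2e-05). Hmox1, heme oxygenase 1, went from 10.6 to 48.2 CPM with vehicle to 485 to 1204 CPM with APAP (41.5-fold, adjusted p = 4.87e-06). Gsta1, an alpha-class glutathione transferase, went from 0.80 to 2.39 CPM to 33.1 to 144 CPM (47.4-fold, adjusted p = 7.53e-06), although reads of close family members such as Gsta2 may be split between them. Ugdh, which makes the UDP-glucuronate used to conjugate APAP, rose 2.81-fold (adjusted p = 1.33e-05). In WT alone 8 rose and 0 fell (1.62% and 0.427% of all genes), and under the Gα12KO label 12 rose and 2 fell (13% and 9.6% of all genes). The WT count rested on single livers, being 2 without WT+veh 1, without WT+veh 3 or without WT+APAP 3.

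Genes of the same biochemical systems outside the 10 did not move as a block. Among 17 other thioredoxin, peroxiredoxin and glutaredoxin genes, 2 rose and 2 fell over all livers (14% and 11.4% of all genes), and the median log2 change was -0.13. The pair that rose was Txnl1, a thioredoxin-like protein of the proteasome (1.47-fold, adjusted p = 0.00192), and Sesn2, a stress-induced sestrin (2.51-fold, adjusted p = 0.00686). Txnrd2, the mitochondrial thioredoxin reductase, fell to 0.780-fold (adjusted p = 0.00968) and Prdx6, a peroxiredoxin that also reduces phospholipid peroxides, to 0.779-fold (adjusted p = 0.0214). Among 12 other enzymes of NADPH supply and the pentose phosphate pathway, of which 11 were tested, 3 rose and 3 fell (14% and 11.4% of all genes), with a median of -0.14. Not all of them make NADPH: Tkt, Rpia and Rpe act in the non-oxidative arm with Taldo1, and Pgls is the lactonase between G6pdx and Pgd. Cytosolic malic enzyme Me1, which makes NADPH, rose 1.81-fold (adjusted p = 0.000725). Transketolase Tkt (1.45-fold, adjusted p = 0.00506) and Rpia (1.68-fold, adjusted p = 0.00665) rose as well, whereas Pgls (0.908-fold, adjusted p = 0.354) and Rpe (0.908-fold, adjusted p = 0.402) did not pass. Rpia, Pgls and Rpe were named after their values were seen, and no test compared the steps of the pathway. Mthfd1 of folate metabolism (0.553-fold, adjusted p = 0.000247), the mitochondrial isocitrate dehydrogenase Idh2 (0.643-fold, adjusted p = 0.00151) and the mitochondrial transhydrogenase Nnt (0.707-fold, adjusted p = 0.00473) fell. In WT alone no gene of these last 2 lists passed, against 1.62% of all genes that rose and 0.427% that fell. Under the Gα12KO label 2 rose and 1 fell in the thioredoxin list, and 3 rose and 2 fell in the other, against 13% and 9.6% of all genes. No gene of the 4 lists passed in the comparisons between genotype labels or in the interaction. Shares over all genes were 0.0309% with APAP, 0.0262% with vehicle and 0% for the interaction.

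**Figure D5:**
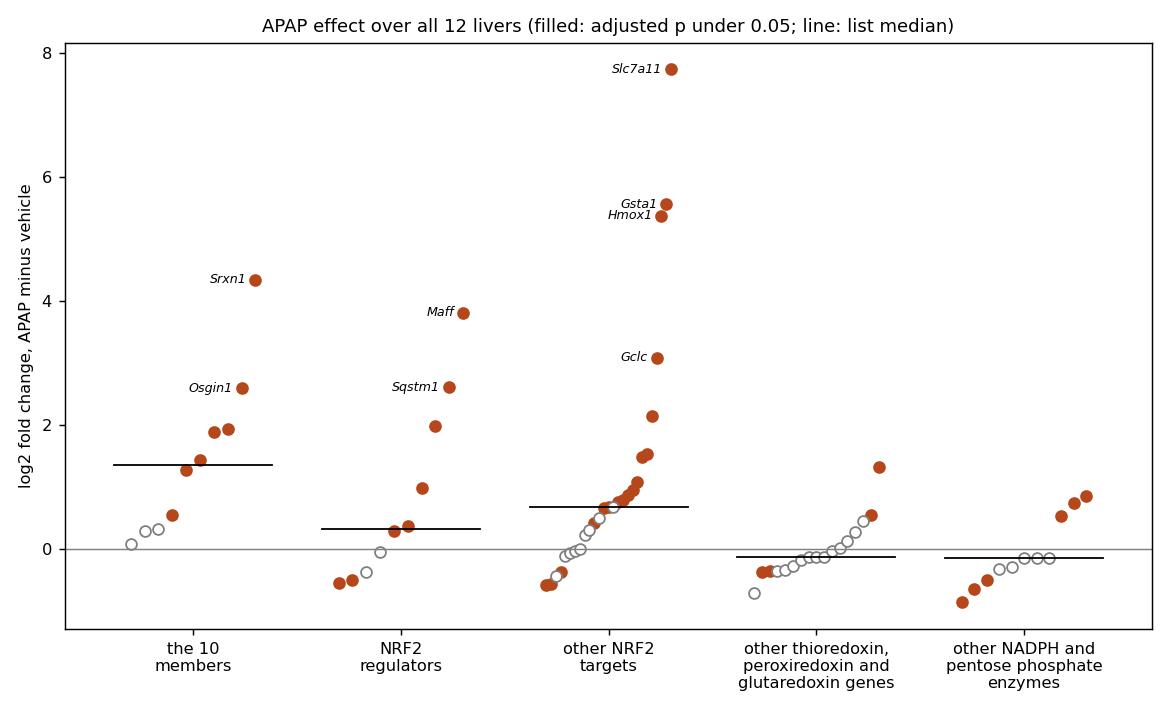
Log2 fold change of APAP minus vehicle over all 12 livers for each tested gene of the 10 members and the 4 further lists, sorted within each list, with filled points where the adjusted p is under 0.05 and a line at each list's median. Medians are 1.36 for the members, 0.33 for regulators, 0.68 for other targets, -0.13 for thioredoxin-related genes and -0.14 for NADPH and pentose phosphate enzymes.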

How the data were processed

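Poly-A RNA from 12 livers (3 per group) was sequenced from TruSeq Stranded mRNA libraries. Per the labels, the authors used FastQC 0.11.7, Trimmomatic 0.38, HISAT2 2.1.0, Bowtie2 2.3.4.1 and StringTie 2.1.3b with mm10 (GRCm38). The deposited table gives read counts per gene, FPKM and TPM for each liver, and the authors' FPKM and TPM scale by length. The strand setting of counting is not given in the sources used here. Counts were used for tests, TPM for levels between genes, and FPKM was not used in any result.

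Groups came from the labels. Counts were fitted over the whole table with edgeR 4.0.16 (R 4.3.3; TMM scaling, filterByExpr, legacy quasi-likelihood test, Benjamini-Hochberg over all genes tested, threshold 0.05), separately for each pair of groups, over all 12 livers with the genotype label as covariate, and with an interaction term. The study's own test, an independent test on quantile-normalized log TPM, was replaced because counts were deposited, and limma 3.58.1 on that scale was an alternative, as were DESeq2 1.42.0, other filters and scaling, a replicate block and leaving out each liver. CPM values are TMM-scaled. Intervals are 95% confidence intervals from the fit. The fitting was tested on simulated counts. At a depth of 49737950 to 69566079 counts, G6pdx (89 to 889 counts) and Nqo1 (159 to 970 counts) had the fewest counts of the members in every liver. The labels number the livers without naming animals, and the tests set differences between groups against the spread between these livers. No within-group pair of libraries agreed within sampling noise.

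The 10 members, the 4 lists and the markers were chosen with earlier results of these data known. All members were named, and from each list at most 5 genes with the smallest p over all livers. Promoter sequences are RefSeq's for GRCm38.p6.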

Additional observations from a re-analysis of the deposited data

How the results depend on the processing

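In WT, the 3 members called after APAP became 7 with DESeq2's Wald test and 7 in 1 fit of all 12 livers, and 1 to 3 when a liver was left out. Over all livers the count was 7 to 8 under every alternative, including each liver left out, and under the Gα12KO label 6 to 8. None of the 10 was called between labels or in the interaction under any alternative. No called value changed sign. With the replicate block, 7 members were called over all livers, 2 in WT (Txnrd1 lost, adjusted p = 0.145) and 6 under the Gα12KO label (Nfe2l2 lost, adjusted p = 0.0527). Liver numbers do not pair the groups: deviations of same-numbered livers correlated at -0.264 to 0.049. Over all genes, WT calls were the least stable, with 255 higher ranging from 41 (without WT+veh 3) to 968 (1 fit of all livers) and 67 lower from 0 to 555. Calls between labels rose to 65 higher and 56 lower with vehicle, and to 9 higher and 27 lower with APAP, by DESeq2's Wald test. The causes were not tested. With 3 livers per group, only large differences between labels could pass. The printed intervals are not adjusted for the number of genes tested and do not mark the smallest difference that could pass. Srxn1 in APAP livers had an interval of 0.08 to 1.44 on the log2 scale and did not pass (adjusted p = 0.958, edgeR).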

Other observations

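Among the 6 APAP livers, Gα12KO+APAP 3 was the highest for 4 of the 10 members (Nqo1, Txnrd1, G6pdx and Pgd), at 13.8, 559, 12.7 and 74.1 CPM. Without the TMM factor and in TPM it was the highest for 6, the same 4 with Nfe2l2 and Taldo1. The rank of WT+APAP 1 changed with the scale: it was the lowest APAP liver for 3 members in TMM-scaled CPM, for 8 without the TMM factor and for 9 in TPM. Taldo1 in that liver was the highest of the APAP livers at 76.7 CPM and the lowest at 57.5 CPM without the factor. Among vehicle livers, WT+veh 2 was the highest on all 3 scales for Txnrd1 (163 CPM) and Osgin1 (289 CPM). The same liver had a neutrophil marker sum of 19.5 CPM and 48.2 CPM of Hmox1, against 1.20 to 2.47 CPM and 10.6 to 16.3 CPM in the other 5 vehicle livers.

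Cytosolic and mitochondrial enzymes of the same reaction, paired after their values were seen, had different values over all 12 livers. Txnrd1 rose 3.70-fold and Txnrd2 fell to 0.780-fold. Txn1 (1.25-fold, adjusted p = 0.191) and Txn2 (0.833-fold, adjusted p = 0.0852) did not pass, nor did cytosolic Idh1 (0.816-fold), whereas mitochondrial Idh2 fell to 0.643-fold. The difference within each pair was not tested.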
